A study of Mus musculus with 6 samples.

Results

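Integrins are adhesion receptors built from 1 alpha and 1 beta chain, and this account covers the 8 genes of the beta chains (Itgb1 to Itgb8) with the alpha chain genes Itgav and Itgae in mouse Th9 cells, CD4 T cells polarised to make the cytokine IL-9. The 10 genes were found by symbol among the 23183 in the count files, and all 10 were present. Itgb3 was selected on its own lower count with sphingosylphosphorylcholine (SPC) in these same libraries, so its values are a description with no test. The other 9 were taken by family name, with earlier results of these data known. In SPC cultures, naive CD4 T cells isolated with an enrichment kit from spleens of wild-type C57BL/6N mice were grown for 3 days with SPC (d18:1) at 30 µM, a bioactive lysophospholipid. Control cultures had no SPC. Both groups were stimulated through plate-bound anti-CD3e and soluble anti-CD28, at 1 µg/ml each, and polarised with TGF-β1 at 2 ng/ml, IL-4 at 10 ng/ml and a blocking antibody to IFN-γ at 10 µg/ml. TGF-β1, a known inducer of Itgae in T cells, was thus present in SPC and control cultures alike. Each group had 3 libraries numbered 1 to 3, and the series describes 3 independent experiments.

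A beta chain pairs with a limited set of alpha chains, and the pair decides which ligand is bound. Itgb2 encodes the chain of the leukocyte integrins, among them the Itgal pair that binds ICAM molecules during T cell contact. Itgb1 and Itgb7 both pair with the Itga4 chain, and Itgb7 also pairs with Itgae in the receptor for E-cadherin that marks tissue-resident T cells. Itgb3 pairs with Itgav, in a receptor for vitronectin and other RGD-bearing matrix proteins, and with Itga2b in the fibrinogen receptor of platelets. Itgb5, Itgb6 and Itgb8 pair with Itgav as well, and the Itgb6 and Itgb8 pairs are known to release active TGF-β from its latent complex. Itgb4 pairs with Itga6 in epithelial hemidesmosomes.

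The libraries held between 22002050 and 33049997 counts. Of 12226 tested genes, 0.483% were called in the fit with group as the only term (edgeR quasi-likelihood test, Benjamini-Hochberg adjusted p below 0.05). SPC was the higher group for 0.327% and the lower for 0.155%. With the library number as a block 7.08% were called, 4.02% higher and 3.07% lower. The groups did not overlap in normalised count for 16.5% of tested genes, 8.67% with SPC higher and 7.8% with SPC lower. Genes of CD4 T cells were abundant, with Cd4 at 468 ± 13.7 CPM (counts scaled to library size by TMM) in SPC and 449 ± 17.2 CPM in control cells (SD, n = 3 each). Il9 averaged 1138 ± 239 CPM in SPC and 539 ± 18.8 CPM in control cells and was called higher. Of 10 CD4 T cell markers, all tested, 0 were called in the group-only fit, and with the block Cd5 rose and Cd2 fell. Of the 10 integrin genes, 8 passed the filter on low counts.

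Itgb3 was lower in every SPC library than in any control library, as were 7.8% of all tested genes. The 3 SPC libraries held 25.7, 24.5 and 22.2 CPM, against 64.5, 68.3 and 69.1 CPM in the 3 control libraries. The raw counts behind these were 846, 639 and 511 in SPC and 1886, 2059 and 1519 in control libraries, so counting error was small. The groups lay far apart relative to their own spread, with means of 24.1 ± 1.77 CPM in SPC and 67.3 ± 2.43 CPM in control cells (SD, n = 3 each). The log2 fold change was -1.48 ± 0.08 (SE), a 2.79-fold lower count with SPC. Within same-numbered pairs, the SPC library held 0.398, 0.358 and 0.322 times the CPM of its control library, so the difference had a like size in all 3 pairs. In bulk RNA, fewer cells that express a gene and less RNA per cell cannot be told apart.

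**Figure D1:**
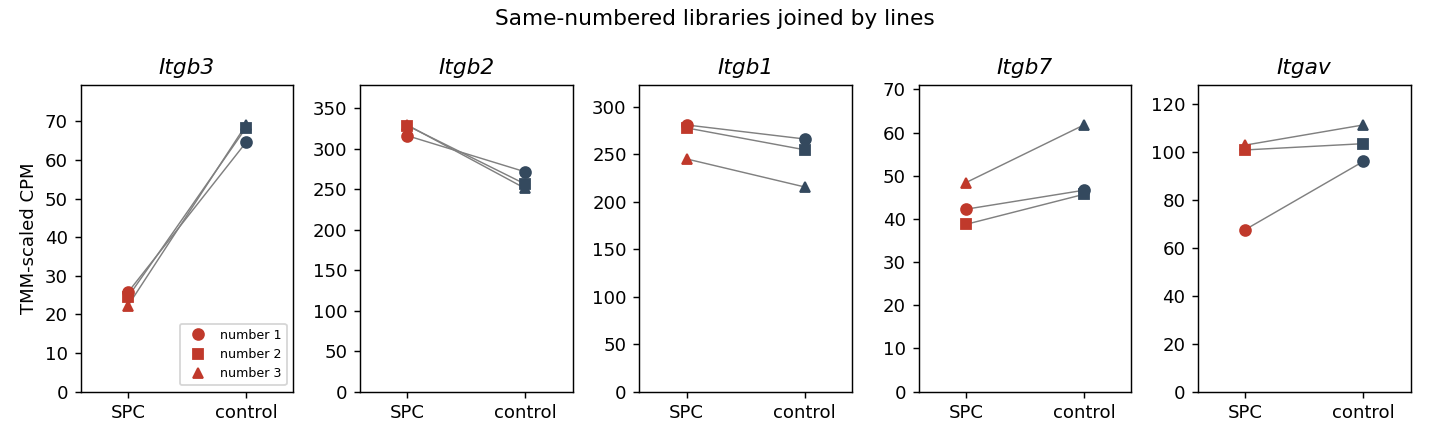
TMM-scaled CPM of 5 integrin genes in each library (SPC left, control right), with same-numbered libraries joined by a line and each vertical axis starting at 0. Itgb3 lies between 22.2 and 25.7 CPM in SPC and between 64.5 and 69.1 CPM in control libraries, while the other 4 genes differ by far smaller factors.

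Itgb3 had the largest fold change of the 8 tested members. Of the other 7 tested members, 0 were called in the group-only fit, beside 0.483% of all tested genes, and 1 (Itgb2) had an unadjusted p under 0.05 (edgeR). With the library number as a block, 1 of these 7 was called, Itgb2, beside 7.08% of all tested genes. DESeq2 called the same gene and no other of the 7, beside 280 of all 12226 tested genes. Their log2 fold changes lay between -0.25 for Itgb7 and 0.49 for Itgb4. The median over the 8 tested members, Itgb3 included, was -0.05, beside 0.00193 over all tested genes. Of the 12226 tested genes, 21 had a log2 fold change more negative than that of Itgb3, and 55 had a larger one in absolute size. Itgb3 was chosen for its lower count with SPC, so its place among these genes is a description only.

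**Figure D2:**
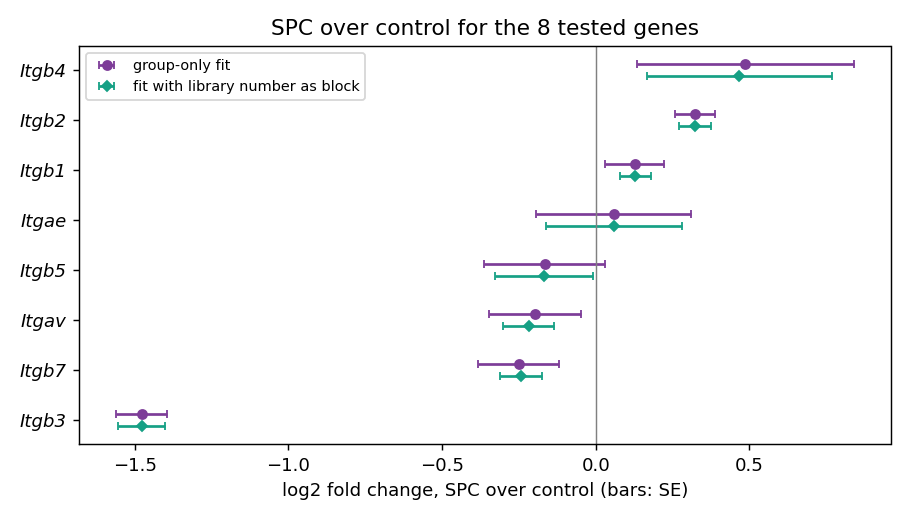
Log2 fold change, SPC over control, of the 8 tested integrin genes, with bars of 1 SE, in the group-only fit (circles) and in the fit with the library number as a block (diamonds). Itgb3 stands at -1.48 in both, and the other genes lie between -0.25 and 0.49 in the group-only fit.

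Itgb2, which encodes the shared chain of the leukocyte integrins, had 316, 328 and 329 CPM in the SPC libraries, against 271, 256 and 251 CPM in the control libraries. All SPC libraries lay above all control libraries, as for 8.67% of all tested genes. The SPC library was higher in each same-numbered pair, by 1.16, 1.28 and 1.31 times. The log2 fold change was 0.32 ± 0.07, with an adjusted p of 0.0791 in the group-only edgeR fit and of 0.00418 with the block. Itgb2 was therefore higher by a factor of 1.25. This was called in the blocked edgeR fit and in DESeq2 (adjusted p = 0.00154) but not in the group-only edgeR fit.

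Itgb1, the chain of many receptors for fibronectin, collagen and laminin, had 281, 278 and 245 CPM in SPC libraries and 266, 255 and 215 CPM in control libraries. The groups overlapped, although the SPC library was the higher one in each pair. Its log2 fold change was 0.13 ± 0.10 (edgeR adjusted p = 0.74, and 0.164 with the block). Itgb7 had 42.3, 38.7 and 48.4 CPM in SPC libraries and 46.7, 45.7 and 61.8 CPM in control libraries. These groups also overlapped, although the SPC library was the lower one in each pair, at 0.906, 0.848 and 0.784 times its control library. Control library 3 was the highest of the 6. The log2 fold change of Itgb7 was -0.25 ± 0.13 (edgeR adjusted p = 0.601, and 0.0594 in the blocked fit). Without control library 3 it was -0.09.

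Itgav, the alpha partner of Itgb3, differed far less between the groups, and the difference was not called. It had 67.6, 100.9 and 102.9 CPM in SPC libraries, against 96.0, 103.5 and 111.3 CPM in control libraries. SPC library 1 stood apart at the low end and the other 5 libraries lay close together, with the SPC library the lower one in each pair (0.704, 0.975 and 0.924 times its control library). The log2 fold change was -0.20 ± 0.15 (edgeR adjusted p = 0.738, and 0.153 in the blocked fit). Without SPC library 1 it was -0.02. Per kilobase of annotated exon, the Itgb3 level was 0.692, 0.442 and 0.393 of the Itgav level in SPC libraries and 1.22, 1.202 and 1.13 of it in control libraries. The highest of these ratios with SPC, in library 1, was the library with the low Itgav count.

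The remaining chains were scarce. Itgb5, another partner of Itgav, averaged 4.13 ± 0.72 CPM in SPC and 4.64 ± 0.78 CPM in control cells (log2 fold change -0.17 ± 0.20, edgeR adjusted p = 0.857). Itgae had 1.70, 1.49 and 1.17 CPM in SPC libraries and 1.71, 1.23 and 1.27 CPM in control libraries, with 27 to 56 counts per library. The 2 groups of Itgae values overlapped almost fully (log2 fold change 0.06 ± 0.25, edgeR adjusted p = 0.968), and its sign turned to -0.07 without SPC library 1 and to -0.04 without control library 2. Itgb4 had 42, 18 and 15 counts in SPC and 21, 20 and 11 counts in control libraries (0.49 ± 0.35, edgeR adjusted p = 0.728). SPC library 1 gave that fold change most of its size, since without it the value was 0.08.

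Both chains known for TGF-β release with Itgav were near the limit of detection and were not tested. Itgb8 had 10, 11 and 2 counts in SPC libraries and 9, 11 and 4 in control libraries. Summed over a group this was 0.280 CPM with SPC (95% exact Poisson interval 0.178 to 0.421) and 0.295 CPM in control cells (0.189 to 0.439). Itgb6 had 2, 0 and 1 counts in SPC and 1, 2 and 1 counts in control libraries, or 0.0366 CPM (0.00754 to 0.107) and 0.0492 CPM (0.0134 to 0.126). These intervals cover counting error only, and a difference was not detectable at this depth.

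Levels can be compared between genes only per length, here as TMM-scaled CPM per kilobase of the merged annotated exons of a gene. In control cells, the order from high to low was Itgb2, Itgb1, Itgb7, Itgb3, Itgav, Itgb5, Itgae, Itgb4, Itgb8 and Itgb6, and the library ranges of all neighbours in that order were apart. The mean levels were 85.01 ± 3.48 for Itgb2, 60.1 ± 6.49 for Itgb1, 18.5 ± 3.25 for Itgb7, 11.4 ± 0.41 for Itgb3 and 9.64 ± 0.71 for Itgav (per kilobase, control, SD, n = 3). Itgb2 stood above 96.0% of tested genes in level and Itgb3 above 65.2%. Itgb5 (1.30 ± 0.22) and Itgae (0.306 ± 0.058) stood above 22.7% and 9.6% of them.

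With SPC, Itgb3 (4.09 ± 0.30) came after Itgav (8.42 ± 1.84), and the other 8 genes kept their places. Itgb8 and Itgb6 were then the only neighbours whose library ranges overlapped. The place of Itgb3 against Itgav in control cells hung on the length used. With the longest annotated transcript in place of the merged exons, Itgav (14.7 ± 1.08) came before Itgb3 (11.6 ± 0.42) in control cells as well, and the ranges of Itgb7 and Itgav overlapped with SPC.

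**Figure D3:**
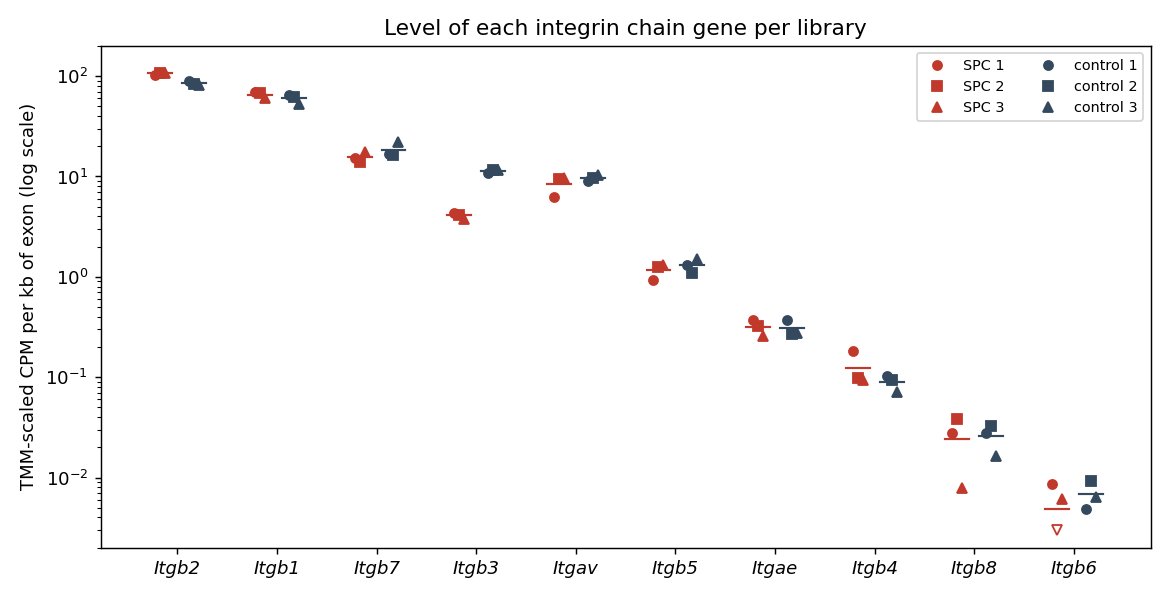
Level of each of the 10 genes per library, as TMM-scaled CPM per kilobase of annotated exon on a log axis (SPC left of control, bars at the means, marker shape by library number, open triangle for a count of 0 drawn at the foot). Itgb2 is the highest gene and Itgb6 the lowest, and among the 5 highest genes Itgb3 has the widest gap between SPC and control.

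The mix of beta chains differed between the groups as follows. Itgb3 made up 2.26%, 2.12% and 1.97% of the summed per-kilobase level of the 8 beta chains in SPC libraries, against 5.96%, 6.59% and 6.86% in control libraries. Itgb2 took 55.1 ± 1.49% in SPC and 48.2 ± 0.36% in control cells, and Itgb1 took 34.0 ± 2.19% and 34.0 ± 2.65% (SD, n = 3 each). The share of Itgb7 was 8.08 ± 1.01% in SPC and 10.6 ± 2.18% in control cells. The summed level of the 8 chains was 190.6 to 195.2 per kilobase in SPC libraries and 170.6 to 183.3 in control libraries, so the lower Itgb3 level did not come with a lower total. These shares rest on the comparison that picked Itgb3 and were not tested.

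**Figure D4:**
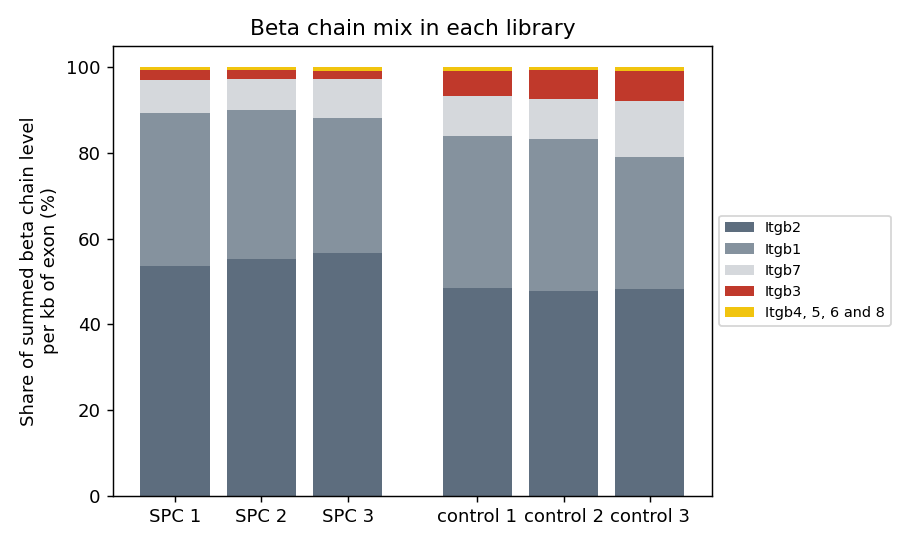
Share of each beta chain gene in the summed beta chain level (TMM-scaled CPM per kilobase of exon, in %) in each library, SPC libraries left of control libraries. The red segment, Itgb3, is 1.97% to 2.26% in SPC and 5.96% to 6.86% in control libraries.

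The alpha chains were measured as well. Itgal, the partner of Itgb2, had the highest level of all alpha chains (91.0 ± 6.40 per kilobase in SPC and 92.2 ± 3.38 in control cells), with a log2 fold change of -0.02 ± 0.07 (edgeR adjusted p = 0.965). Itgav came next in control cells, followed by Itga6, which pairs with Itgb1 and Itgb4 (5.11 ± 0.84 per kilobase in SPC and 5.42 ± 0.25 in control cells), and by Itga5, a fibronectin receptor chain (4.45 ± 0.16 in SPC and 3.99 ± 0.42 in control cells). Itga2b, the platelet partner of Itgb3, was rare, with 21 to 29 counts per SPC library and 14 to 35 per control library (0.09 ± 0.36, edgeR adjusted p = 0.966). Itgam and Itgax, myeloid partners of Itgb2, had at most 2 counts in sum per group for Itgam, and 4 in SPC and 1 in control libraries for Itgax.

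Of the other 17 integrin chain genes, 9 were tested and 0 were called in the group-only edgeR fit, beside 0.483% of all tested genes. With the block 1 rose, Itga7, and 1 fell, Itga4, beside 4.02% and 3.07% of all tested genes. Itga4, the common partner of Itgb1 and Itgb7, had 18.0, 31.9 and 29.1 CPM in SPC libraries, against 49.5, 52.5 and 42.2 CPM in control libraries. All SPC libraries lay below all control libraries, as for 7.8% of all tested genes, and SPC library 1 was the lowest. The log2 fold change was -0.87 ± 0.19 (edgeR adjusted p = 0.0974, and 0.0123 with the block), and -0.66 without SPC library 1. Itga7, a laminin receptor chain, had 9.14, 18.4 and 33.4 CPM in SPC and 6.26, 9.26 and 28.5 CPM in control libraries. Its spread between library numbers was wider than the difference within pairs (0.48 ± 0.58, edgeR adjusted p = 0.86, and 0.0243 with the block). The genes called with the block but not in the group-only fit, here and in the lists that follow, were chosen after their values were seen.

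Ligands, activators, adaptors and TGF-β pathway genes were taken from 4 further lists. Together with the chain genes the 5 lists held 116 genes, of which 90 were tested and 0 were called in the group-only edgeR fit, beside 0.483% of all tested genes, with 15 at an unadjusted p under 0.05. With the block, 8 rose and 7 fell, or 16.7% beside 7.08% of all tested genes. The lists were chosen with earlier results of these data known, so this share is a description only. Other settings were read for 5 of these, Itga4, Itga7, Icam1, Thbs1 and Vcam1. DESeq2 called all but Itga7, beside 280 of all 12226 tested genes. The group-only edgeR fit called Icam1 with no filter on low counts (adjusted p = 0.0366), beside 147 of 16801 genes. Without both libraries numbered 3 it called Vcam1 (adjusted p = 0.0463), beside 38 of 12289 genes. In the blocked edgeR fit, Itga7 was not called without both numbered 1 (adjusted p = 0.253) or both numbered 2 (0.0757). Itga4, Icam1, Thbs1 and Vcam1 stayed called in that fit with any pair left out. The share of all tested genes called in those smaller blocked fits was not read. In the group-only edgeR fit with a pair left out, Itga4, Icam1 and Thbs1 were never called (adjusted p 0.123 to 0.9996). The groups did not overlap for 10 of the 90 with SPC higher and for 10 with SPC lower, beside 8.67% and 7.8% of all tested genes.

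Among matrix and cell surface ligands, 13 of 22 genes were tested (median log2 fold change 0.23), and with the block 3 rose and 2 fell, beside 4.02% and 3.07% of all tested genes. Icam1, the ligand of the Itgal and Itgb2 pair, had 54.5, 54.4 and 58.3 CPM in SPC and 42.6, 42.4 and 41.6 CPM in control libraries (0.40 ± 0.07, edgeR adjusted p = 0.053, and 0.00422 with the block). Thbs1, which encodes the matrix protein thrombospondin 1, a ligand of Itgb3 integrins, had 45.7, 50.8 and 42.7 CPM in SPC and 34.6, 30.5 and 21.6 CPM in control libraries (0.68 ± 0.16, adjusted p = 0.117, and 0.00185 with the block). All SPC libraries lay above all control libraries for both genes, as for 8.67% of all tested genes. Vcam1, the ligand of the Itga4 and Itgb1 pair, averaged 5.44 ± 2.01 CPM in SPC and 1.85 ± 0.90 CPM in control cells (1.54 ± 0.39, edgeR adjusted p = 0.16, and 0.000276 with the block). Lama5, a laminin chain gene, averaged 60.2 ± 14.5 CPM in SPC and 90.3 ± 29.7 CPM in control cells (-0.58 ± 0.24, edgeR adjusted p = 0.429, and 0.000555 in the blocked fit). Pecam1, an adhesion molecule of leukocytes and endothelium, fell by 0.53 ± 0.22 on the log2 scale (edgeR adjusted p = 0.456, and 0.0354 in the blocked fit). Vtn, the vitronectin gene, and the fibrinogen genes Fga, Fgb and Fgg had a count of 0 in all 6 libraries.

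Among the 21 tested activators and brakes of integrins (of 23, median log2 fold change -0.01), Rap1b was the 1 gene that the blocked test called, beside 7.08% of all tested genes. Rap1b encodes a small GTPase that drives integrin activation and averaged 407 ± 18.9 CPM in SPC and 475 ± 16.6 CPM in control cells (-0.22 ± 0.07, edgeR adjusted p = 0.25, and 0.0249 with the block). Tln1, the talin gene whose product binds beta chain tails, had 591 ± 23.1 CPM in SPC and 607 ± 26.9 CPM in control cells (-0.04 ± 0.07, adjusted p = 0.91). Flna, which encodes filamin A, a competitor of talin for those tails, had 1021 ± 79.0 CPM in SPC and 912 ± 72.6 CPM in control cells (0.16 ± 0.09, adjusted p = 0.597).

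Of the 31 tested genes of adhesion complexes and their signalling (of 35, median -0.02), Src rose and Vcl fell with the block, beside 4.02% and 3.07% of all tested genes. Src, a kinase gene acting downstream of integrins, had 11.6, 10.95 and 10.7 CPM in SPC and 5.78, 6.20 and 8.77 CPM in control libraries (0.69 ± 0.16, edgeR adjusted p = 0.132, and 0.0106 with the block). Vcl, the vinculin gene, had 36.1, 42.0 and 37.5 CPM in SPC and 51.7, 52.9 and 43.0 CPM in control libraries (-0.35 ± 0.10, adjusted p = 0.222, and 0.0177 with the block). The groups did not overlap for either gene, beside 8.67% of all tested genes with SPC higher and 7.8% with SPC lower. Actn4 and Pak2, the most counted genes of the list, had log2 fold changes of -0.10 ± 0.08 and 0.01 ± 0.07 (edgeR adjusted p = 0.76 and 0.984).

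The list of latent TGF-β and its release (16 of 19 tested, median 0.05) held 3 genes that rose and 2 that fell with the block, where 7.08% of all tested genes were called. Tgfbr1, a TGF-β receptor chain gene, averaged 139 ± 10.4 CPM in SPC and 114 ± 6.10 CPM in control cells (0.30 ± 0.08, edgeR adjusted p = 0.191, and 0.00656 with the block). Smad7, an inhibitor and target of the pathway, averaged 33.7 ± 3.26 CPM in SPC and 26.3 ± 2.17 CPM in control cells (0.36 ± 0.10, adjusted p = 0.214, and 0.0146 with the block). Furin, a protease gene that matures TGF-β, had 0.18 ± 0.24 (adjusted p = 0.872, and 0.0433 with the block), while Smad3 had -0.24 ± 0.13 and Tgfb3 -1.66 ± 0.68 (adjusted p = 0.597 and 0.434, and 0.0469 and 0.0478 with the block). Tgfb3 had 11, 12 and 13 counts in SPC and 21, 17 and 69 counts in control libraries, so control library 3 stood apart. Tgfb1 itself had 333 ± 30.8 CPM in SPC and 313 ± 10.7 CPM in control cells (0.09 ± 0.08, adjusted p = 0.799).

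Itgb3 is also known from platelets and macrophages, so their markers were read beside it. The 11 platelet and megakaryocyte markers summed to 1.99 to 2.56 CPM in SPC libraries and 1.61 to 2.12 CPM in control libraries. Among them Pf4, Ppbp, Gp6, Treml1 and Clec1b had a count of 0 in every library. Of the 2 tested markers, Itga2b and Gp1ba, 0 were called in the group-only edgeR fit, beside 0.483% of all tested genes. With the block 0 were called, beside 7.08%. Gp1ba was higher in every SPC library than in any control library, beside 8.67% of all tested genes, and the groups overlapped for Itga2b. The 10 macrophage and monocyte markers summed to 1.72 to 2.30 CPM in SPC and 1.95 to 2.27 CPM in control libraries. Marco, Mrc1, C1qa, C1qb and C1qc were at 0 throughout. Adgre1, the macrophage marker F4/80 gene, had 6, 4 and 5 counts in SPC and 12, 21 and 18 counts in control libraries (-1.77 ± 0.42, edgeR adjusted p = 0.13, and 0.0315 with the block), while Cd68 had 0.42 ± 0.24 (adjusted p = 0.628). The Adgre1 count thus moved with Itgb3, at a level of 0.184 ± 0.032 CPM in SPC and 0.642 ± 0.209 CPM in control cells, and its part in the result was not tested.

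Markers of dendritic cells summed to 58.4 to 77.2 CPM in SPC and 59.1 to 70.8 CPM in control libraries, nearly all of it Batf3, which activated T cells also express (63.2 ± 8.87 CPM in SPC and 59.8 ± 6.35 CPM in control cells). Zbtb46, another gene of that list, rose with the block (0.65 ± 0.22, edgeR adjusted p = 0.331, and 0.0427 with the block). The lists of mast cells and basophils, of stroma and endothelium, of epithelium, of B cells and of CD8 T and NK cells each summed to under 5 CPM in every library. Each of these lists had only 1 or 2 tested genes. None was called in either edgeR fit, beside 0.483% of all tested genes group-only and 7.08% with the block. The groups did not overlap for Hdc and Cd79b, with SPC higher, and for Epcam and Eomes, with SPC lower. These stand beside 8.67% and 7.8% of all tested genes.

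The 5 genes whose values over the 6 libraries came closest to those of Itgb3 were Tg, Gpr65, Ptpn13, Tigit and Car5b, in that order. Closeness was the root mean square distance between centred log2 CPM values, and it was 0.199 for Tg and 0.336 for Car5b (Pearson r 0.970 and 0.965 over 6 libraries, which share their depth and the 2 groups). Tg (thyroglobulin) had 14.8, 14.0 and 14.3 CPM in SPC and 27.8, 33.04 and 41.7 CPM in control libraries. Gpr65, a proton-sensing receptor gene, had 5.68, 5.97 and 7.61 CPM in SPC and 14.8, 19.5 and 23.7 CPM in control libraries. All 5 were lower in every SPC library than in any control library, as were 7.8% of all tested genes. They were picked for closeness to Itgb3 in these same libraries, so this pattern followed from the choice and is a description. The 4 other members with a mean of at least 5 CPM were farther away by this measure, with Itgb7 at 0.647 (r 0.573), Itgav at 0.678 (r 0.421), Itgb1 at 0.813 (r -0.482) and Itgb2 at 0.907 (r -0.984). Itgb2 was thus higher in the libraries where Itgb3 was lower, over a far smaller range. This r reflects mainly the difference between the 2 groups, for which Itgb3 was chosen, and is a description.

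Itgb3 lies on the plus strand of chromosome 11 (104608000 to 104670476, mm10), and none of its exonic bases lies in an exon of another gene. Only 0.0697% of the 50-base windows of its longest transcript are shared with any other gene. The nearest tested gene on one side is Myl4, a myosin light chain gene, with 16, 5 and 5 counts in SPC and 17, 10 and 14 counts in control libraries (log2 fold change -0.70 ± 0.47, edgeR adjusted p = 0.695). The nearest on the other side is Mettl2, a methyltransferase gene, with 38.5 ± 1.71 CPM in SPC and 36.3 ± 3.04 CPM in control cells (0.08 ± 0.09, adjusted p = 0.832). Cdc27 and Kansl1, the well-counted genes beyond Myl4, had -0.22 ± 0.10 and 0.07 ± 0.08 (adjusted p = 0.492 and 0.84). Of the 9 other genes of the files within 500 kb, 5 were tested. In the group-only edgeR fit 0 were called, beside 0.483% of all tested genes, and with the block 0, beside 7.08%. For Cdc27 and the low-count gene Mapt (-0.84 ± 0.34) all SPC libraries lay below all control libraries, beside 7.8% of all tested genes. The groups overlapped for Kansl1, Myl4 and Mettl2.

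**Figure D5:**
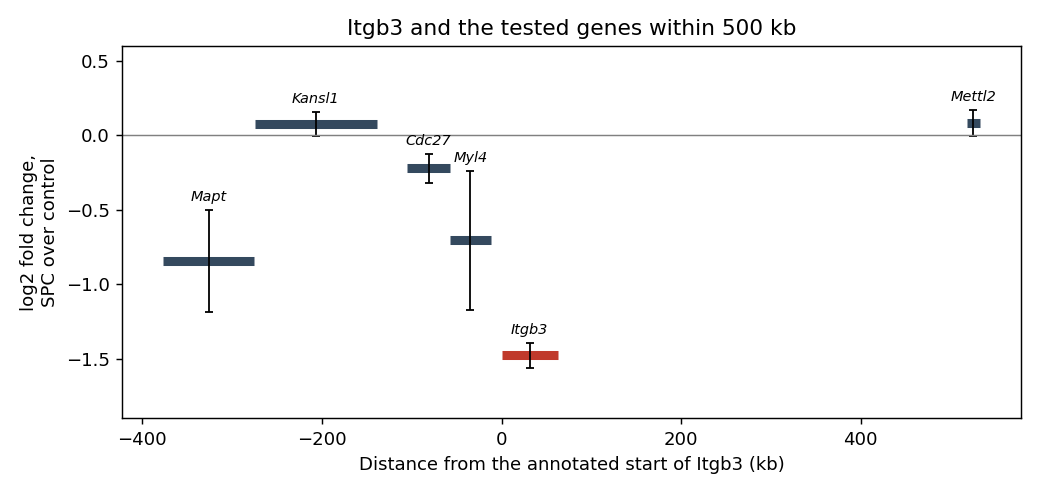
Log2 fold change, SPC over control (error bars of 1 SE), of Itgb3 and the 5 tested genes within 500 kb of it, drawn over the extent of each gene as distance from the annotated start of Itgb3. Itgb3 lies at -1.48, Mettl2 at 0.08, Kansl1 at 0.07, Cdc27 at -0.22, and the low-count genes Myl4 and Mapt at -0.70 and -0.84 with wide error bars.

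The other members lie elsewhere in the genome except for 2 on the same chromosome. Itgae (73090583 to 73147446) and Itgb4 (115974709 to 116008412) are on chromosome 11 too, far from Itgb3 on either side. Of the exonic bases of Itgb4, 7.66% lie in an exon of an opposite-strand gene, and of those of Itgav 5.90%. Since the strand setting of the counting is not given in the sources used here, reads of such stretches cannot be assigned with certainty. For Itgb5, 8.17% of the 50-base windows of the longest transcript are shared with other genes, and for Itgb2 1.16%, so part of their reads could be split by the counting. The other members had 0.336% or less.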

How the data were processed

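Gene expression was measured by RNA sequencing of 6 libraries made from 1.3 µg of total RNA each with a strand-marking kit, per the labels' protocols. The deposited values are raw read counts per gene symbol, 1 file per library. TopHat and mm10 are named in the submitters' processing notes. No TopHat version, counting program, annotation or strand setting is given in the sources used here. Totals of 22002050 to 33049997 counts limit precision for genes under about 1 CPM.

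The main test was that of edgeR 4.0.16, run in R 4.3.3 on the deposited counts (quasi-likelihood F test, robust, TMM scaling, filterByExpr with a minimum count of 10 and a minimum total of 15), with group as the single term and Benjamini-Hochberg adjustment over all 12226 tested genes. Standard errors (SE) were derived from the fold change and its F value. The script was tested on simulated data. Exact permutation of 3 against 3 libraries cannot go below p = 0.10 and was not used. Alternatives were DESeq2 1.42.0, other size factors, no filter, a block, other lengths and leaving libraries out.

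The chi-square per degree of freedom between libraries of a group was at least 5.03, so no library was merely a second sequencing of another in its group. Whether the libraries came from separate cultures cannot be read from this value. Libraries with the same number deviated together from their group means (r of 0.413, 0.208 and 0.508 over genes, each over 0.1), and the series describes 3 experiments, so the numbers were read as pairs and blocked values are given where they change a call. The labels do not say whether the experiments used separate animals, and p-values measure the spread between these libraries.

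Lengths and coordinates came from GENCODE M21 (GRCm38), where 98.41% of symbols matched, and coordinates are 1-based. Named genes were the 10 members, up to 4 called genes of each list or else its 2 most counted tested genes, the 5 genes closest to Itgb3 (mean of at least 5 CPM, predicted genes left out, prior count 2) and its nearest tested neighbours. Others were chosen after their values were seen. The members and lists were chosen with earlier results of these data known.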

Additional observations from a re-analysis of the deposited data

How the results depend on the processing

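The log2 fold change of Itgb3 lay between -1.56 and -1.40 under all 13 alternatives, among them every left-out library and pair, and that of Itgb2 between 0.29 and 0.38 under 16. The number of called genes, 59, became 147 with no filter, 280 with DESeq2 and 866 with the library number as a block. With libraries left out it lay between 0 and 66: 6 if control library 2 or SPC library 2 was dropped, 28 for control library 3, 35 for SPC library 3, 38 for control library 1 or both libraries numbered 3, 15 without both numbered 1, and 0 in edgeR without both numbered 2 (502 at an unadjusted p under 0.05). Of the 7 tested members beside Itgb3, 0 were called at first, 1 with the block and 1 with DESeq2 (Itgb2 in both). Of the 90 tested list genes, 0 were called at first and 15 with the block. Of all tested genes, 0.483% were called at first and 7.08% with the block. The blocked fit of all 6 libraries changed no other call among the members. With a pair left out, the blocked fit also called Itgb1 and Itgb7 (without both numbered 1) and Itgav (without both numbered 2). The share of all tested genes called in these smaller fits was not read, so these calls cannot be set beside it. The difference in the Itgb3 share of beta chain level, -4.35 percentage points, was -7.09 without division by length and lay between -4.61 and -4.16 with 1 library left out. Itgb3 ranked 4 in control level and 5 with the longest transcript. The sign turned for 2 genes. With libraries left out, Itgae lay between -0.0745 and 0.2402, below 0 with SPC library 1 alone, control library 2 alone or both numbered 2 left out (-0.0399 in the blocked fit for that pair), and Itga7 between -0.0777 (SPC library 3 absent) and 1.377. The settings for the 5 list genes and the blocked fits with a number left out were added after seeing the data. The cause of these changes was not tested. Members under 1 CPM are limited by depth.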
